A study of Mus musculus with 9 samples.

Results

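The genes described here are 32 genes of B lymphocytes, the white blood cells that make antibodies, measured in RNA from pancreatic islets. Immunoglobulin variable segments were left out of the set. The members were chosen from a list of B cell genes after earlier results of these data had shown such genes to be lower on 1 of the diets, so their levels on that diet and on the control diet are a description and not a test. All 32 were found among the 56941 genes of the deposited count table, and 31 passed the filter on low counts that left 18548 genes. Vpreb3 did not pass it.

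The islets, the hormone-secreting cell clusters of the pancreas, came from wild-type male C57BL/6J mice that were 15 weeks old when the diets began. They stayed for 9 months on a low fat control diet of 10% fat (LFD), a high fat diet of 60% fat (HFD) or a ketogenic diet of 89.9% fat (KD). There were 3 LFD, 2 HFD and 4 KD libraries, and the study asked how a ketogenic diet affects islet gene expression. The labels do not say whether each library came from 1 mouse or from pooled mice, so p-values measure the spread between these libraries only.

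B cells sense antigen through a surface immunoglobulin held in a complex with the signal chains CD79A and CD79B. Kinases such as BTK and BLK and adaptors such as BLNK pass the signal on, while CD22, CD72 and Siglec-G damp it. PAX5 keeps the B lineage in place, and activated cells can turn into plasma cells that secrete large amounts of antibody, with the J chain joining the units of secreted IgM and IgA. Islets of healthy animals hold few such cells, and lymph nodes lie within and beside the pancreas from which islets are isolated.

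Total counts ran from 15513502 to 26588390. Within a diet, every pair of libraries differed by more than sampling noise (smallest chi-square per gene 22.5). Islet endocrine markers took 2.42% to 16.02% of counts over the 9 libraries, so the labelled tissue was present in each. Markers of acinar cells, the enzyme-secreting cells around the islets, took 12.5% to 29.4% of counts on LFD, 9.41% to 15.7% on HFD and 16.9% to 50.01% on KD. Levels are given as CPM, read counts relative to a library size that was scaled by the trimmed mean of M values (TMM). In bulk libraries, fewer cells of a type and less RNA per cell cannot be told apart.

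Promoter windows from RefSeq on GRCm38.p6, 250 bases before to 50 bases after the start of each gene, were matched by symbol for 24 of the 32 members. The windows were searched on both strands for 3 sequences bound by regulators of the B lineage. The core of PU.1 and Spi-B sites, GAGGAAGT, stood in 3 of the 24 member genes (12.5%: Fcrl1, Cd37 and Cd72) and in 3.69% of 27025 genes. The octamer ATGCAAAT, read by the OCT factors with the coactivator that Pou2af1 encodes, stood in 2 (8.3%: Vpreb3 and Blnk) against 1.97%. The EBF1 core CCCNNGGGA stood in 1 (4.2%: Cd22) against 7.48%. Because 8 members had no window, the shares cover only the matched ones. A match describes letters in the window only. The 120 bases before the start are printed for 4 members that behaved differently across the diets, in the direction of transcription, with the matched letters in capitals (as the reverse complement of the motif). Fcrl1 had no count on KD, Cd37 was 18.4-fold lower, Cd72 was 2.87-fold lower and Vpreb3 was not lower.
Fcrl1, chr3:87376267-87376386, plus strand: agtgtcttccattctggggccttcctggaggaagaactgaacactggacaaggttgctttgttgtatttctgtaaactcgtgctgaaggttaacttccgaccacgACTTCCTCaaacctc
Cd37, chr7:45238840-45238959, minus strand: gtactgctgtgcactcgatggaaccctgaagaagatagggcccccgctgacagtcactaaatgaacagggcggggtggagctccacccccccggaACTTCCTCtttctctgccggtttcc
Cd72, chr4:43454627-43454746, minus strand: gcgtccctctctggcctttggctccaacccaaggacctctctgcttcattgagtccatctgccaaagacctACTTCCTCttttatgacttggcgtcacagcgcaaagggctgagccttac
Vpreb3, chr10:75948180-75948299, plus strand: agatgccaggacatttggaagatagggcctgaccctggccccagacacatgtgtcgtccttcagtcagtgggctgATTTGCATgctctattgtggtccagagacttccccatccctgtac

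Added together, the 32 genes reached 1027, 2077 and 146.5 CPM in LFD replicates 1 to 3, 131.1 and 142.1 CPM in the HFD libraries, and 68.6, 47.7, 38.9 and 46.2 CPM in KD replicates 1 to 4. The KD libraries lay below all others, and LFD replicate 3 lay close to HFD while the other LFD libraries stood far above. As a percent of all counts, LFD replicate 3 fell within the HFD range (0.0184% against 0.0161% and 0.0213%), and KD ran from 0.00241% to 0.00540%. All 32 genes had counts in every LFD library. On HFD, 4 and 1 of them had no counts, and on KD 10, 10, 16 and 4 had none. The acinar share of KD replicate 4, 16.9%, lay inside the LFD range, and its members summed to 46.2 CPM. The part of acinar content in the levels of the members was not tested.

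Ighm, Igkc and Jchain, here called the antibody genes, made up most of that sum in 4 of the 5 LFD and HFD libraries. Ighd, which also encodes an antibody chain, was counted with the other 29. The 3 antibody genes summed to 850, 1764 and 64.6 CPM on LFD, 97.4 and 106.9 CPM on HFD, and 32.2, 16.9, 7.93 and 15.7 CPM on KD. The other 29 summed to 176.7, 313.2 and 81.9 CPM on LFD, 33.7 and 35.2 CPM on HFD, and 36.4, 30.7, 31.0 and 30.5 CPM on KD. HFD overlapped LFD in the antibody sum and overlapped KD in the sum of the rest. The overlap with KD rested on Ralgps2 and Bcl11a, which together held 22.1 to 26.4 CPM on KD and 20.6 and 17.98 CPM on HFD. The remaining 27 genes summed to 147.5, 279 and 55.1 CPM on LFD, 13.1 and 17.2 CPM on HFD, and 12.3, 8.69, 4.63 and 7.17 CPM on KD, with no overlap between the diets. The antibody genes took 82.8%, 84.9% and 44.1% of member counts on LFD, 74.3% and 75.3% on HFD, and 20.4% to 46.9% on KD. These divisions were drawn after the values had been seen.

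**Figure D1:**
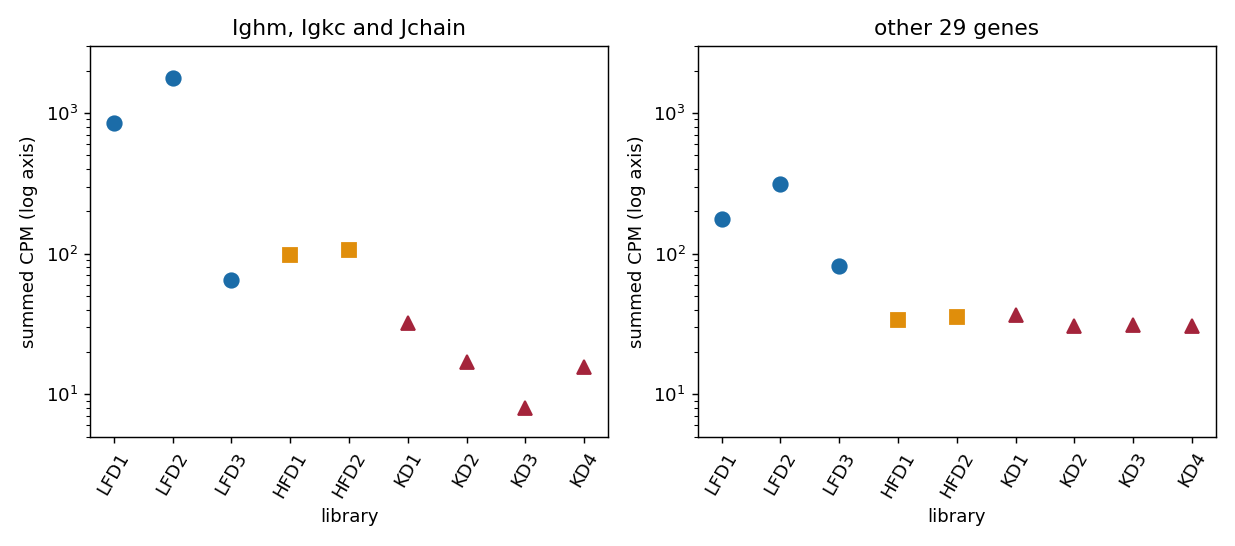
Summed CPM in each of the 9 libraries (log axis) for Ighm, Igkc and Jchain at left and for the other 29 genes at right, with 1 point per library. LFD replicate 3 (64.6 CPM) sits under both HFD libraries at left, while at right all LFD libraries sit above HFD and KD.

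In the fit over all genes, 27 of the 31 tested members were called lower on KD than on LFD by edgeR's quasi-likelihood test (adjusted p below 0.05), where 3.14% of all genes tested were called lower. None was called higher, against 0.981% of all genes. For 29 tested members every KD library lay below every LFD library, which held for 10.1% of all genes. The median fitted log2 fold change was -5.83, and that of all genes was -0.02. This contrast chose the members, so nothing further is read from these counts. Of the 27, 15 were called in each of the 9 fits that left out 1 library, among them Cd79a, Cd79b, Ighd, Pax5, Pou2af1, Ms4a1, Cr2 and Fcer2a. These fits reuse the libraries that chose the members, so they describe dependence on single libraries and give no separate evidence for these genes. Omitting LFD replicate 1 or 2 left 16 calls, omitting KD replicate 2 left 17 and omitting KD replicate 3 left 15. The share of all genes called in these fits is not reported here, so the numbers cannot be set against it.

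Ratios of pooled scaled counts show the sizes directly, with 95% exact intervals that cover counting error only. LFD stood above KD by a median of 47.4-fold over the 32 genes, with Fcrl1 at its lower bound. The ratio was over 100 for 8 genes, from 10 to 100 for 16, from 2 to 10 for 5 and below 2 for 3. Over HFD the median ratio of LFD was 13.9, with Tnfrsf13c at its lower bound, and 1 gene, Pax5, passed 100. Both sets of ratios use the same LFD libraries. The pooled LFD level leans on LFD replicate 2, the highest LFD library for 29 members. For Ighm it held 25103 of the 33435 LFD counts, while LFD replicate 3 had 44.0 CPM against a KD mean of 12.0 CPM. The intervals leave out this spread between libraries.

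**Figure D2:**
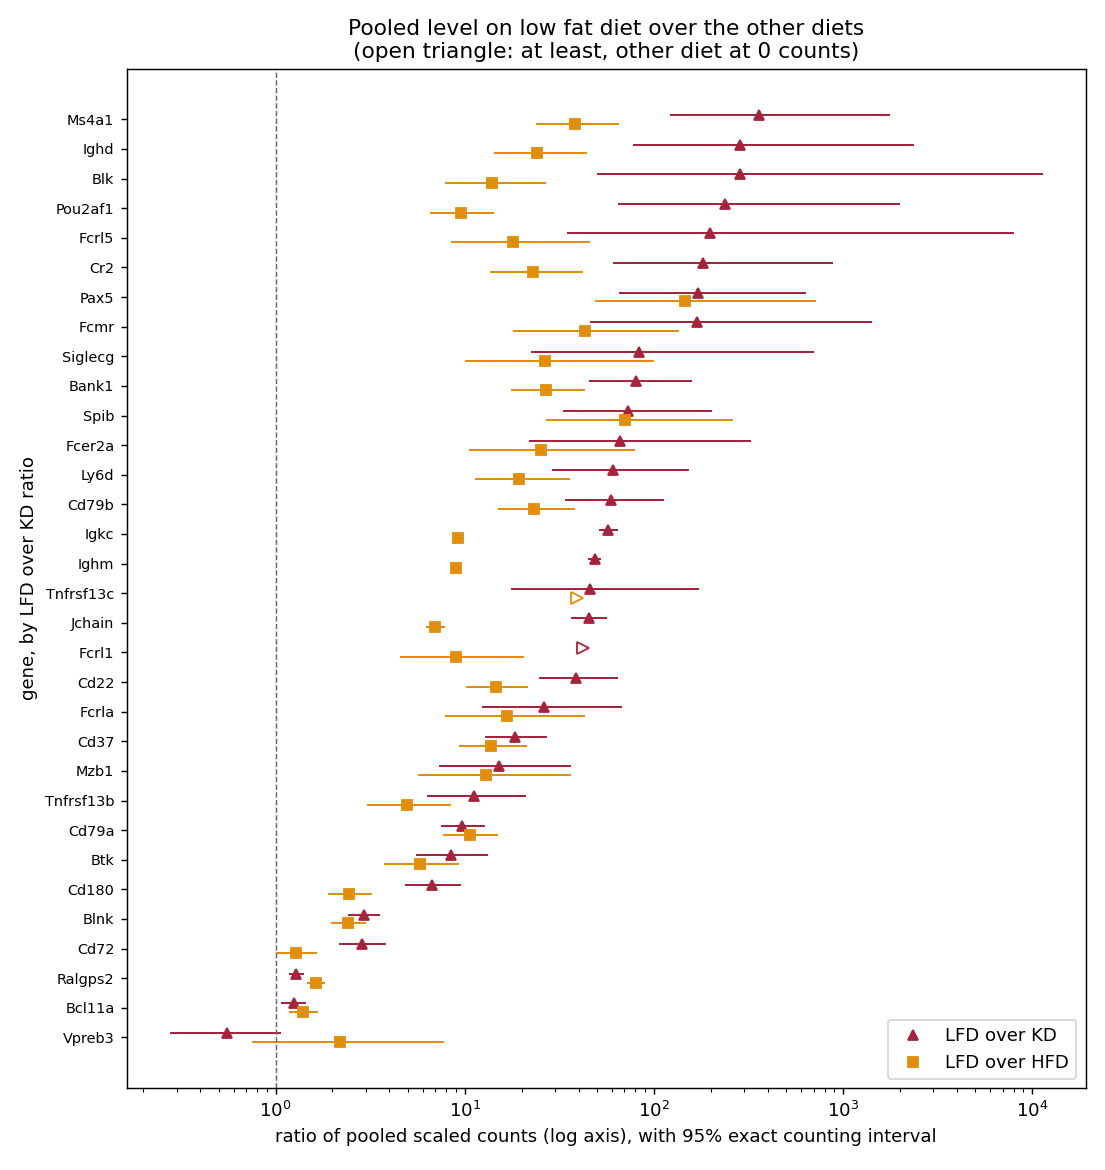
Ratio of pooled scaled counts on LFD to those on KD (triangles) and on HFD (squares) for each member, on a log axis with 95% exact counting intervals and open symbols for lower bounds. Ms4a1 is at the top with 359 over KD, and Bcl11a, Ralgps2 and Vpreb3 are at the foot near or below 1.

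Within the antigen receptor group, all 5 tested genes were lower on KD, and Ighm, the constant region of IgM, was the most abundant member by counts. It measured 453, 1125 and 44.0 CPM on LFD, 53.0 and 69.6 CPM on HFD, and 23.7, 8.69, 5.26 and 10.4 CPM on KD. The KD libraries were lowest without overlap, and both HFD libraries were higher than LFD replicate 3. Pooled, LFD was 48.6-fold above KD (interval 45.3 to 52.2) and 8.99-fold above HFD (8.65 to 9.35). Igkc, the constant region of the kappa light chain, followed the same order, with 286, 546 and 16.4 CPM on LFD, 30.3 and 31.7 CPM on HFD, and 6.38, 6.28, 2.14 and 4.30 CPM on KD. Its pooled ratios were 57.6 over KD (51.7 to 64.3) and 9.23 over HFD (8.74 to 9.76). LFD replicate 3 again lay under both HFD libraries, and no KD library reached it.

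Ighd encodes the constant region of IgD, which mature naive B cells carry on their surface. It measured 5.33, 14.7 and 3.80 CPM on LFD, 0.2001 and 0.461 CPM on HFD, and 0, 0, 0 and 0.0896 CPM on KD. Here the 3 diets did not overlap at all, and LFD replicate 3 stood with the other LFD libraries. Cd79b, the beta signal chain, measured 12.0, 16.8 and 4.64 CPM on LFD, 0.6003 and 0.377 CPM on HFD, and 0.389, 0.134, 0 and 0.224 CPM on KD. Its partner Cd79a measured 8.28, 15.6 and 5.96 CPM on LFD, 1.25 and 0.712 CPM on HFD, and 1.32, 1.43, 0.802 and 0.627 CPM on KD. Both chains separated LFD from the other diets, and HFD and KD overlapped in each. Although the 2 proteins work as a pair, the pooled LFD to KD ratio was 59.1 for Cd79b (34.3 to 111.6) and 9.71 for Cd79a (7.60 to 12.6).

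The last gene of the group, Vpreb3, encodes a protein that binds immunoglobulin chains in early B cells, and it did not follow the others. It measured 0.429, 0.269 and 0.0938 CPM on LFD, 0.150 and 0.0838 CPM on HFD, and 1.01, 0.223, 0.713 and 0.224 CPM on KD. LFD and KD overlapped, and both HFD libraries were below all KD libraries. The pooled LFD to KD ratio was 0.556 with an interval of 0.279 to 1.06, which includes 1. Vpreb3 did not pass the filter of the main fit. Fitted with no low-count filter, it had a log2 fold change of 0.99 on KD over LFD and was not called (edgeR adjusted p 0.608).

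**Figure D3:**
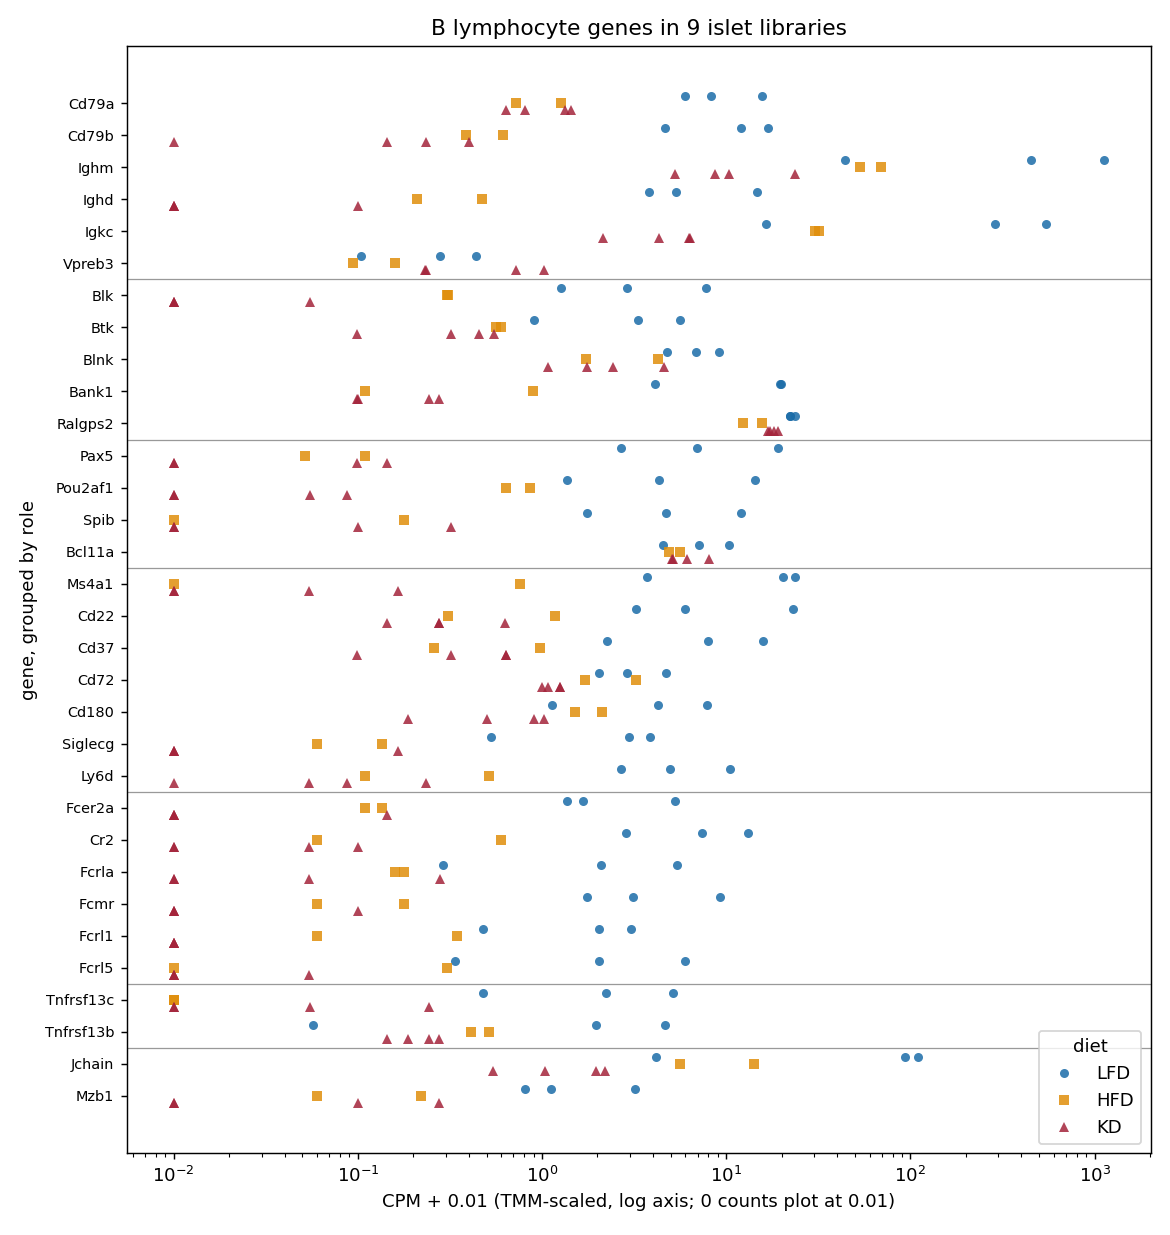
CPM of all 32 members in each library on a log axis, grouped by role, with 0.01 added so that libraries with no counts plot at 0.01. LFD points lie to the right for most genes, while those of Ralgps2 and Bcl11a lie within a narrow band for all 3 diets and those of Vpreb3 reach their highest value on KD.

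Among the kinases and adaptors of receptor signalling, 3 of 5 were called lower on KD. Blk, a Src-family kinase of B cells, had a pooled LFD to KD ratio of 285 that rests on 1 count on KD (interval 50.6 to 11290), and 14.0 over HFD. Bank1, an adaptor that binds signalling kinases, had ratios of 80.9 over KD and 26.9 over HFD. Btk, the kinase whose loss stops human B cell development, had 8.42 and 5.79. Blnk, the adaptor that couples the receptor to phospholipase C, measured 6.81, 9.19 and 4.74 CPM on LFD, 4.25 and 1.72 CPM on HFD, and 4.59, 2.41, 1.07 and 1.75 CPM on KD. All its HFD and KD libraries lay below every LFD library, with KD replicate 1 just under the lowest. The pooled LFD ratios of Blnk were 2.92 over KD (2.43 to 3.52) and 2.42 over HFD (1.98 to 2.98). It was not called on KD (log2 fold change -1.50, edgeR adjusted p 0.0895). Ralgps2, an exchange factor for Ral GTPases, was the most abundant of this group by counts and varied least between libraries. It measured 22.1, 23.7 and 22.2 CPM on LFD, 15.7 and 12.4 CPM on HFD, and 19.1, 16.9, 18.3 and 17.2 CPM on KD. HFD was its lowest diet, LFD its highest, and the 3 ranges did not touch. The fitted change on KD was -0.35 on the log2 scale and was not called (edgeR adjusted p 0.156).

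The transcription regulators divided in the same way, with Pax5, Pou2af1 and Spib called lower on KD and Bcl11a not. Pax5, which fixes B cell identity, measured 6.93, 19.1 and 2.67 CPM on LFD, 0.100 and 0.0419 CPM on HFD, and 0, 0, 0.0891 and 0.134 CPM on KD. It was near 0 on both fat-rich diets, with a pooled LFD ratio of 171 over KD (66.6 to 631) and 146 over HFD (49.6 to 708). Spib, an ETS factor of B cells and plasmacytoid dendritic cells, showed 73.3 and 70.0, with wide intervals (33.4 to 201.0 and 27.1 to 258). Pou2af1, the coactivator of the OCT factors, measured 4.29, 14.2 and 1.36 CPM on LFD, 0.850 and 0.629 CPM on HFD, and 0.0778, 0, 0 and 0.0448 CPM on KD. Unlike Pax5 it stayed measurable on HFD, and its pooled ratios were 239 over KD (65.9 to 1984) and 9.53 over HFD (6.65 to 14.1). Bcl11a, a zinc finger repressor that neurons also express, measured 7.11, 10.3 and 4.55 CPM on LFD, 4.90 and 5.57 CPM on HFD, and 5.06, 5.12, 8.10 and 6.14 CPM on KD. All 3 diets overlapped, and the fitted change on KD was -0.27 (edgeR adjusted p 0.607).

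All 7 surface molecules and inhibitory receptors were called lower on KD. Ms4a1, which encodes CD20, measured 20.2, 23.8 and 3.71 CPM on LFD, 0 and 0.754 CPM on HFD, and 0.156, 0.0446, 0 and 0 CPM on KD. LFD stood apart, and HFD and KD overlapped at or near no counts. Its pooled ratio over HFD was 38.2 (24.0 to 64.7). Cd22 and Siglecg, lectins that bind sialic acid and restrain the receptor, had LFD to KD ratios of 39.0 and 83.3. Cd37, a tetraspanin, and Ly6d, a surface marker of the lineage, had ratios of 18.4 and 60.9. Cd180, a partner of toll-like receptor signalling, had 6.72 over KD and 2.46 over HFD. Cd72, another inhibitory receptor, measured 2.88, 4.71 and 2.02 CPM on LFD, 1.70 and 3.23 CPM on HFD, and 1.25, 1.25, 1.07 and 0.986 CPM on KD. HFD overlapped LFD, and the KD libraries were lowest and close together. In GENCODE M21 the exons of Cd72 share 1423 bases with Tesk1 on the opposite strand and those of Cd180 share 182 with Mast4. Pax5, Bcl11a, Cd22 and Cd37 share 13 to 636 exon bases with opposite-strand models. How strand was used in counting was not given in the sources used here, and reads of such partners cannot be told apart.

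All 6 Fc and complement receptors and their relatives were called lower on KD, and as a group they came closest to no counts there. Their sum was 18.3, 42.0 and 7.04 CPM on LFD, 0.4002 and 1.68 CPM on HFD, and 0, 0.134, 0 and 0.583 CPM on KD. Cr2, the complement receptor CD21, measured 7.36, 13.1 and 2.86 CPM on LFD, 0.05002 and 0.587 CPM on HFD, and 0, 0.0446, 0 and 0.0896 CPM on KD. LFD stood clear of both other diets, with ratios of 181 over KD (61.6 to 881) and 23.1 over HFD (13.8 to 41.5). Fcer2a, the low-affinity IgE receptor CD23, measured 1.66, 5.24 and 1.36 CPM on LFD, 0.100 and 0.126 CPM on HFD, and 0, 0, 0 and 0.134 CPM on KD. Only KD replicate 4 held any counts of it on KD, and that library reached the HFD level. Fcrl1, an Fc receptor-like protein, had no count in the 4 KD libraries, so LFD was at least 42.5-fold higher, taking 3 counts over the group as the floor. Fcmr, which binds IgM, had a ratio of 169, Fcrl5 had 199 and Fcrla had 26.4, the first 2 of which rest on 2 and 1 counts on KD.

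The receptors for the survival factors BAFF and APRIL were the least abundant group on LFD. Tnfrsf13c, the main BAFF receptor of mature B cells, measured 2.21, 5.15 and 0.469 CPM on LFD, 0 and 0 CPM on HFD, and 0.233, 0, 0 and 0.0448 CPM on KD. No HFD library held a count of it, so LFD was at least 39.3-fold above HFD. Tnfrsf13b, known as TACI, measured 1.96, 4.62 and 0.0469 CPM on LFD, 0.4002 and 0.503 CPM on HFD, and 0.233, 0.267, 0.178 and 0.134 CPM on KD. LFD replicate 3 was lower than every other library for Tnfrsf13b, so both other diets overlapped LFD. It was not called on KD (log2 fold change -3.40, edgeR adjusted p 0.0718).

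Of the 2 genes for antibody assembly, Jchain was far the more abundant. It measured 110.2, 93.6 and 4.13 CPM on LFD, 14.1 and 5.62 CPM on HFD, and 2.18, 1.96, 0.534 and 1.03 CPM on KD. HFD overlapped LFD only through LFD replicate 3, and KD was below all, as for Ighm and Igkc. Within diets the order differed from theirs, since Jchain was higher in LFD replicate 1 than in replicate 2 and in HFD replicate 1 than in replicate 2. Its pooled ratios were 45.2 over KD (37.1 to 55.6) and 6.99 over HFD (6.31 to 7.75). Mzb1, a chaperone of antibody assembly in the endoplasmic reticulum, measured 1.104, 3.18 and 0.797 CPM on LFD, 0.05002 and 0.209 CPM on HFD, and 0, 0.267, 0 and 0.0896 CPM on KD. LFD stood above both other diets, which overlapped. The exons of Mzb1 share 695 bases on the same strand with the neighbouring gene model SPATA24 in GENCODE M21, so its counts are uncertain.

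Per kilobase of merged exons, Igkc (532 CPM per kb) led on LFD, before Ighm (287) and Jchain (27.5). Ly6d, Cd79b, Cd79a and Ighd followed at 8.10, 7.78, 6.81 and 4.19 CPM per kb. On KD the order was Igkc (8.98), Ighm (6.36), Ralgps2 (1.48), Cd79a (0.717), Vpreb3 (0.632) and Jchain (0.567). The antibody chains thus led on both diets, and on KD genes that had not been called lower stood among the next in rank.

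The LFD libraries differed widely among themselves. LFD replicate 2 was the highest of the 3 for 29 members and LFD replicate 1 for 3, and LFD replicate 3 was the lowest for 31. The ratio of replicate 2 to replicate 3 had a median of 6.35 over the 32 genes, from 1.06 for Ralgps2 to 98.4 for Tnfrsf13b. It was 25.5 for Ighm, 33.2 for Igkc and 22.7 for Jchain, but 2.61 for Cd79a, 3.62 for Cd79b, 3.88 for Ighd and 3.86 for Fcer2a. The antibody genes therefore differed more between LFD libraries than the signal chains and IgD did. In the fits that left out 1 library, Ighm, Jchain, Cd72 and Cd180 were called lower on KD in 1 of 9 and Igkc in 3 of 9, against 9 of 9 for Cd79a, Cd79b, Ighd and Fcer2a. Those fits reuse the contrast that chose the members, so they only describe how the calls depend on single libraries.

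Ratios of counts within a library do not depend on how libraries are scaled. Ighm gave 84.98 counts per Ighd count in LFD replicate 1 (95% exact interval 68.8 to 106.2), 76.3 in replicate 2 (68.4 to 85.3) and 11.6 in replicate 3 (9.23 to 14.7). It gave 265 (103.1 to 974) and 151 (84.2 to 303) on HFD. On KD, replicate 4 gave 116 (31.8 to 964), and the other 3 had no Ighd count, with lower bounds of 81.9, 52.4 and 15.5. LFD replicate 3 thus had the lowest value of IgM transcript for its IgD transcript, and its interval did not meet those of the other LFD libraries.

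Cd79a gave 0.692, 0.925 and 1.28 counts per Cd79b count on LFD, 2.08 and 1.89 on HFD, and 3.40, 10.7 and 2.80 in KD replicates 1, 2 and 4. KD replicate 3 had no Cd79b count, with a lower bound of 1.97. The value was higher in all HFD and KD libraries than in any LFD library, but intervals overlapped. Those of both HFD libraries and of KD replicates 1 and 4 overlapped that of LFD replicate 3. Those of both HFD libraries and of KD replicate 4 also overlapped that of LFD replicate 2. The interval of HFD replicate 2 met that of LFD replicate 1 as well. The light and heavy chains kept closer company, with 1.58, 2.06 and 2.68 Ighm counts per Igkc count on LFD, 1.75 and 2.19 on HFD, and 3.71, 1.38, 2.46 and 2.42 on KD. These diets overlapped. The gene pairs were picked after the values had been seen, and no test was made.

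**Figure D4:**
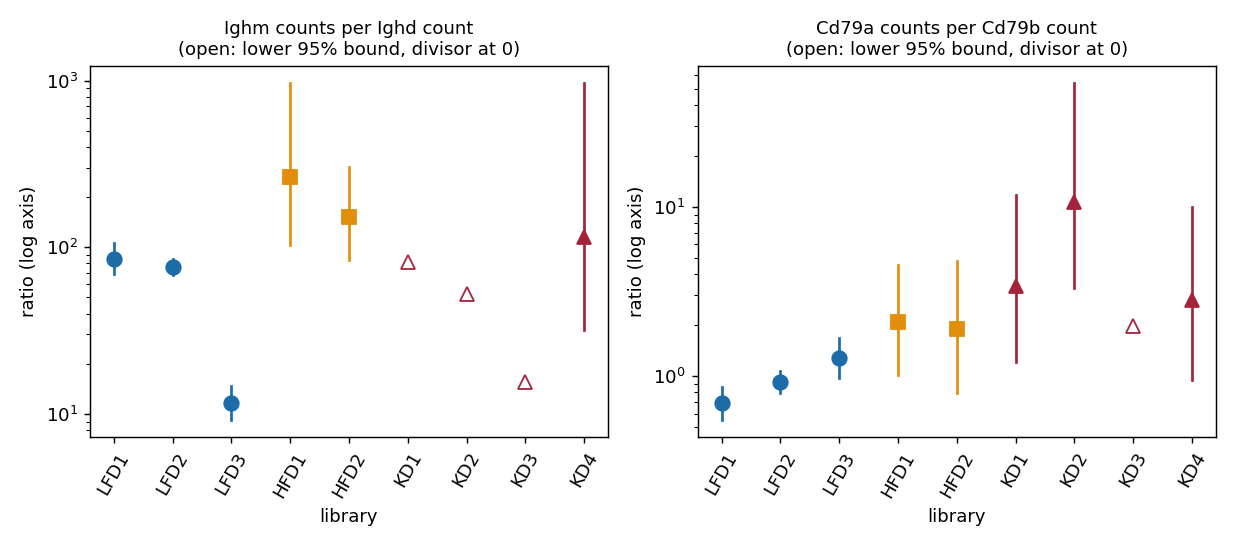
Counts of Ighm per Ighd count (left) and of Cd79a per Cd79b count (right) in each library, on log axes, with 95% exact intervals and open symbols for lower bounds where the divisor had no count. LFD replicate 3 is lowest at left with 11.6, and all 3 LFD libraries are lowest at right.

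HFD was compared with LFD to ask whether the members were also lower on the other fat-rich diet. All 31 tested members were fitted lower on HFD, with a median log2 fold change of -3.79 against -0.00 for all genes, but edgeR called 0 of them (0% of all genes) and the smallest adjusted p was 0.134. At an unadjusted p below 0.05, 26 were lower, where 6.44% of all genes were. DESeq2 called 18 lower (1.33% of all genes) and limma-voom called 0. Without LFD replicate 3, edgeR called 23 lower (1.03%). No overlap was seen for 24 members, all lower on HFD, against 14.1% of all genes. The 7 that overlapped were Ighm, Igkc, Jchain, Cd72, Cd180, Bcl11a and Tnfrsf13b. The LFD libraries are the ones that chose the members, so these counts are not separate evidence that B cell genes are low on HFD.

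KD was compared with HFD for the same genes, with KD libraries that are also part of the contrast that chose them. The median log2 fold change was -1.33 against -0.04 for all genes. EdgeR called 0 members (0% of all genes), with 9 lower at an unadjusted p below 0.05 (10.6% of all genes), DESeq2 called 3 lower (2.60%) and limma-voom 0. The KD libraries were all below the HFD libraries for 11 tested members, where 18.2% of all genes showed this. They were Ighm, Ighd, Igkc, Blk, Btk, Pou2af1, Cd72, Cd180, Fcrl1, Tnfrsf13b and Jchain. Only Ralgps2 was higher in every KD library among the tested members (15.7% of all genes). Pooled HFD to KD ratios were 5.41 for Ighm (4.99 to 5.86), 6.24 for Igkc (5.54 to 7.04), 6.47 for Jchain (5.19 to 8.12) and 25.1 for Pou2af1 (6.41 to 216). For Cd79a, Pax5 and Spib they were 0.916, 1.18 and 1.05, with intervals that include 1. In a joint test over the diets, 21 members passed (edgeR adjusted p below 0.05), against 2.17% of all genes. The joint test includes the contrast that chose the members, so the 21 are not separate evidence of a diet effect. That number was 9 when KD replicate 2 was left out, 10 for LFD replicate 2 and 12 for KD replicate 3. The share of all genes that passed in those fits is not reported here.

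Other genes of B cells were examined from lists that hold no member, for KD against LFD. These lists share genes with those of other cells, such as Ptprc with all leukocytes and Cxcl13 with lymph node stroma. Of all genes tested, 3.14% were called lower. Of 29 other genes of antigen receptor signalling, 11 were lower and none was higher. They included Ptprc, which encodes the leukocyte phosphatase CD45 (log2 fold change -3.24, edgeR adjusted p 0.00802), Malt1 (-1.10, 0.0102) and the kinase gene Syk (-3.07, 0.0147). Of 14 tested genes for homing and survival, 8 were lower, among them Cxcr5, the follicle homing receptor (-7.13, 0.00985), and Ccr7 (-6.46, 0.0135). Cxcl13, the ligand of CXCR5, was lower too (-5.83, 0.0210). Of 12 genes of MHC class II and its partners, which macrophages also use, 8 were lower. They were led by the costimulatory genes Cd86 (-3.34, 0.00494) and Cd83 (-3.57, 0.00494). Cd74, H2-Ab1, H2-Eb1 and H2-DMa were fitted lower (-1.23, -1.13, -1.24 and -0.95) and not called.

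Lists for later and earlier stages of the lineage were examined in the same way. Of 11 tested plasma cell genes, Irf4 (-5.88, edgeR adjusted p 0.0220) and Slamf7 (-2.10, 0.0224) were lower. The list as a whole was not, with 6 of the 11 fitted lower and a median log2 fold change of -0.32. Its genes summed to 456 to 680 CPM on LFD and 619 to 1100 CPM on KD. Xbp1 and Sdc1 of the same list, which gland cells also express, had counts of 3730 or more and 98 or more in every library. Of the 8 tested constant genes of other immunoglobulin classes, only Ighg3 was called lower (-5.07, 0.0303). All 8 were fitted lower, with a median log2 fold change of -5.80. Of 4 tested precursor genes, Il7r (-4.37, 0.0152) and Lef1 (-4.65, 0.0281), which T cells share, were lower, and Rag1, Rag2 and Vpreb2 had no counts in any library. Among 9 tested genes of B-1 and marginal zone cells, 3 were lower (Spn, Plscr1 and Zbtb32), and among 4 tested germinal centre genes none was. No gene of these lists was called higher on KD. Over all lists, including the markers of other cells, 54 genes were lower. That number was 23 when LFD replicate 1 was left out, 18 for LFD replicate 2, 29 for KD replicate 1, 18 for KD replicate 2 and 16 for KD replicate 3. The share of all genes called lower in those fits is not reported here.

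Of the markers of other cells, those of T cells and of all leukocytes were called lower on KD than on LFD most often. The median log2 fold changes were -4.74 for T cells, -2.72 for all leukocytes, -0.66 for macrophages and 1.72 for acinar cells. T cell markers were lower for 12 of 14 tested, with sums of 8.49 to 67.5 CPM on LFD, 2.68 to 3.35 CPM on HFD and 1.34 to 2.60 CPM on KD, and 3 of the 15 had no counts on HFD. Markers of all leukocytes were lower for 6 of 9, with sums of 51.6 to 260 CPM on LFD, 40.8 to 42.8 CPM on HFD and 14.8 to 24.7 CPM on KD. For natural killer cells 1 of 2 tested genes, Nkg7, was lower. For macrophages 1 of 11 tested genes, Lyz2, was lower, with sums of 84.3 to 146.5, 101.9 to 134 and 43.3 to 77.8 CPM. Of 9 tested genes of lymph node stroma and vessels, Cxcl13 and Pdpn were lower, and Ccl21a had 28, 186 and 24 counts on LFD, 0 and 0 on HFD, and 0, 14, 0 and 9 on KD. None of 12 acinar, 12 islet endocrine and 8 general genes was called in either direction. The part of these cells in the levels of the members was not tested.

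**Figure D5:**
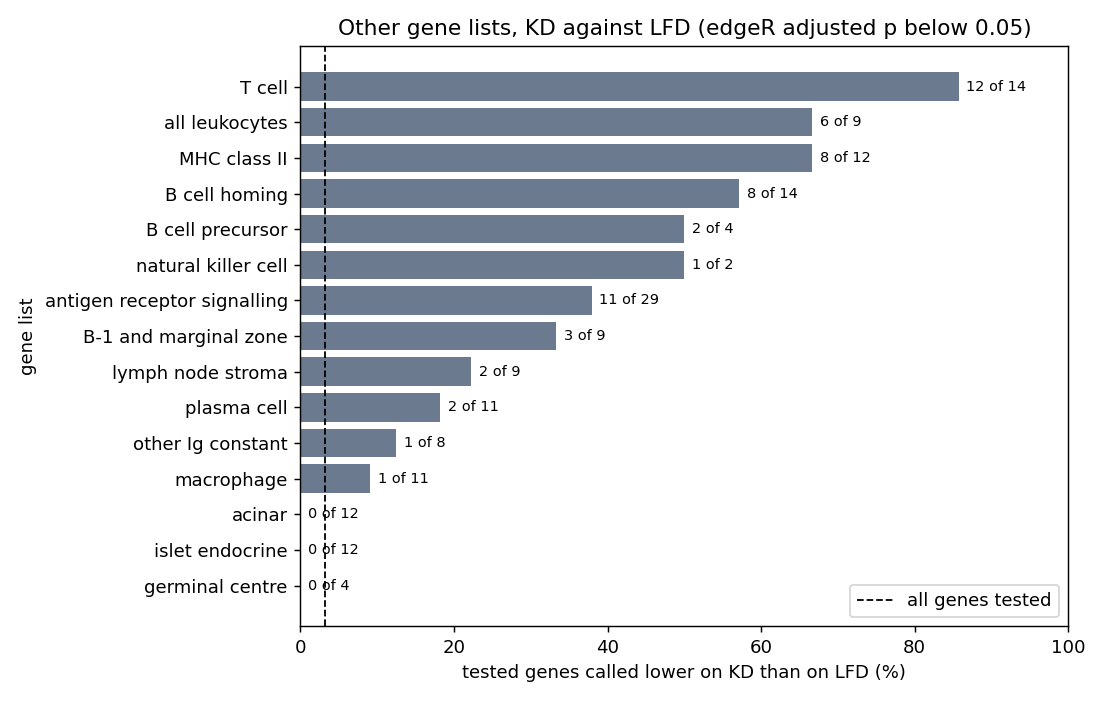
Percent of the tested genes of each list called lower on KD than on LFD by edgeR, with the number called beside each bar and the share of all genes tested as a dashed line at 3.14%. T cell genes (12 of 14) have the longest bar, followed by genes of all leukocytes (6 of 9) and of MHC class II (8 of 12) at the same length, and acinar, islet and germinal centre genes have none.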

How the data were processed

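Polyadenylated RNA was made into directional libraries, per the labels' protocols. The authors deposited raw counts per Ensembl gene in 1 table with a column per library, matched to the samples by title. The submitters' processing notes name cutadapt 1.16, STAR 2.7.9a, featureCounts 1.6.3 and DESeq2 1.40.2 with GRCm39. The annotation, the strand setting and the treatment of reads shared between genes are not given in the sources used here. That build differs from GRCm38, so coordinates belong to the promoter table alone.

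Counts were analysed in R 4.3.3 with edgeR 4.0.16. Genes were kept by filterByExpr with diet as group (minimum count 10), scaled by TMM and fitted with a mean per diet over all 9 libraries (robust quasi-likelihood, two-sided). P-values were adjusted by Benjamini-Hochberg over all 18548 genes, with a threshold of 0.05. The procedure was tested on simulated data. DESeq2 1.42.0 and limma 3.58.1 (voom with quality weights) were alternatives, with other scalings and filters, a replicate block and the omission of each library. Pooled ratios carry 95% exact binomial intervals, and a group without counts was set to 3 counts over the group.

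All members are named. Values per library are given for the most abundant member of each role, for Jchain, Mzb1, Ms4a1, Ighd, Cr2 and Fcer2a, and for members whose mean on KD exceeds 0.2 times that on LFD. Igkc, Cd79a, Cd79b, Pax5, Pou2af1 and Tnfrsf13c were added after their values were seen. Up to 4 called genes with the lowest p are named in the other lists, and all where 5 or fewer were called. The values of 2 genes that this rule names are not reported here. The members and lists were chosen with earlier results of these data known. Replicate numbers were not treated as pairs, since deviations of same-numbered libraries from their group means were correlated by -0.02 to 0.22.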

Additional observations from a re-analysis of the deposited data

Results flagged for a closer look

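In the KD group, 7 of the 32 members had 1 library far from the other 3, with a gap to the nearest library above Dixon's 95% critical value. For normally spread values chance flags about 1 in 20 groups of 4. Where 3 libraries have no counts, any count in the other is flagged, so the 7 cannot be set against that rate. KD replicate 4 was the high library for Ighd (0.0896 CPM, 2 counts), Blk (0.0448 CPM, 1 count), Fcer2a (0.134 CPM, 3 counts), Fcrla (0.269 CPM, 6 counts) and Fcmr (0.0896 CPM, 2 counts). KD replicate 1 was high for Siglecg (0.156 CPM, 2 counts), and KD replicate 2 for Fcrl5 (0.0446 CPM, 1 count). Apart from Fcrla, each rests on 1 to 3 counts against none in the other KD libraries.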

How the results depend on the processing

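For KD against LFD, all settings without a left-out library called 21 to 29 members, and leaving out each library gave 15 to 28. The median log2 fold change then ran from -6.15 to -4.97. Other-list genes called numbered 54, with 16 to 77 when 1 library was left out. The joint test gave 9 to 28 members. For HFD against LFD, where edgeR called 0 members, DESeq2 called 18 lower (1.33% of all genes) and the fit with no low-count filter 8. The omissions gave 0 to 23 with medians of -4.70 to -2.77, and the 23 came without LFD replicate 3 (1.03% of all genes). For KD against HFD, DESeq2 called 3 lower (2.6% of all genes). With the replicate block, HFD against LFD had 22 calls, KD against HFD 4 and the other lists 92. For the other changed settings the share of all genes called is not reported here, so their counts cannot be set against it. The replicate numbers do not pair the libraries by design, and 2 of 6 libraries correlated best with their own number. Leaving out libraries turned the direction of Bcl11a in KD against LFD (-0.52 to 0.06) and Cd72 in HFD against LFD (-0.91 to 0.02). In KD against HFD it did so for Spib (-1.21 to 3.84), Pax5 (-1.41 to 0.42), Blnk (-0.79 to 0.51), Cd79a (-0.25 to 0.56), Ms4a1 (-4.07 to 2.92) and Mzb1 (-1.56 to 1.02). Over all settings the sign also differed there for Bank1 (-2.29 to 0.76), Cd37 (-1.08 to 0.84), Fcrl5 (-4.60 to 1.65) and Cd22 (-1.93 to 0.01). Limma-voom gave -0.58 for Spib and 0.07 for Mzb1, the filter of 1 CPM in 3 libraries -0.01 for Spib, and the block 0.14 for Blnk. The cause of these moves was not tested. With 10 members at 3 or fewer counts over the KD libraries, depth limits what can be said of differences at the low end.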

Other observations

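The constant genes of the switched antibody classes were unevenly spread among libraries, including those of 1 diet. Ighg2b had 108, 3450 and 8 counts in LFD replicates 1 to 3, 0 and 1 on HFD, and 1, 2, 1 and 38 on KD. Igha, the IgA constant gene, had 292, 1858 and 35 counts on LFD, 172 and 67 on HFD, and 0, 56, 0 and 27 on KD. Ighg1 had 73 counts in HFD replicate 1, 29 and 6 in LFD replicates 1 and 2, and none elsewhere. Ighg2c had 101, 649 and 60 counts in LFD replicates 1 to 3, 0 and 63 on HFD, and none on KD. All 18 counts of Ighe, the IgE constant gene, came from LFD replicate 3, the LFD library with the fewest Ighm counts. These genes were picked after their values had been seen.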
